A study of Gallus gallus with 20 samples.

Results

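The genes described here encode enzymes that oxidise, hydrolyse or conjugate sterols, steroids, vitamins, fatty acids and foreign compounds. They were taken from the 17108 genes of the deposited tables by symbol: cytochromes P450 (CYP, without the cholesterol synthesis gene CYP51A1), UDP-glycosyltransferases (UGT), sulfotransferases (SULT), flavin monooxygenases (FMO) and epoxide hydrolases (EPHX). The rule used no measured value and found 39 genes, namely 28 CYP, 6 SULT, 3 EPHX, 1 UGT and 1 FMO gene. Each had 1 transcript in the deposited tables.

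RNA had been sequenced from liver and from pectoralis major, the breast muscle, of male Ross 708 chickens, a commercial meat strain, at post-hatch day 35. The control birds ate a diet with L-methionine and the others a diet deficient in it, from week 3 to week 5 of age. The 4 groups (liver control, liver deficient, breast control, breast deficient) held 5 libraries each. The labels name 5 birds per diet, so each library of a tissue was treated as a bird of its own, but they leave unsaid whether a liver and a breast library of equal number share a bird. The amount of methionine in either diet is not given in the sources used here.

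Cytochromes P450 are haem enzymes that put oxygen from O2 into a substrate, mostly with electrons from P450 oxidoreductase or, in mitochondria, from adrenodoxin. Liver is their richest tissue: it makes bile acids from cholesterol through CYP7A1, CYP27A1 and related enzymes, and clears drugs through the CYP1, CYP2 and CYP3 families. Epoxide hydrolases open reactive epoxides that P450s form. Sulfotransferases pass sulfate to hydroxyl groups of hormones and phenols from the donor PAPS. Animals can make that sulfate from the sulfur of methionine and cysteine.

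Levels are given as scaled FPKM: the authors' fragments per kilobase of transcript, relative to library size, divided by a library factor computed within each tissue. FPKM is per length, so levels of different genes can be compared within a tissue. Assigned sequence was 1.40 to 2.75 gigabases per library, from deposited coverage and transcript length, and 1 unit of FPKM stood for a mean coverage of 1.85 to 3.47. Read counts are unknown, so no counting interval is given. The tissue labels held against markers: 22 hepatocyte markers summed to between 34372 and 66720 scaled FPKM in liver libraries and to between 709 and 3225 in breast libraries. ALB, the albumin gene, was listed at 0 in all 10 liver libraries and was left out of this sum as an estimate marked as failed. The sum of 10 skeletal muscle markers was at least 28385 in each breast library and at most 53.3 in 9 of 10 liver libraries. It was 298 in liver control 1.

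**Figure D1:**
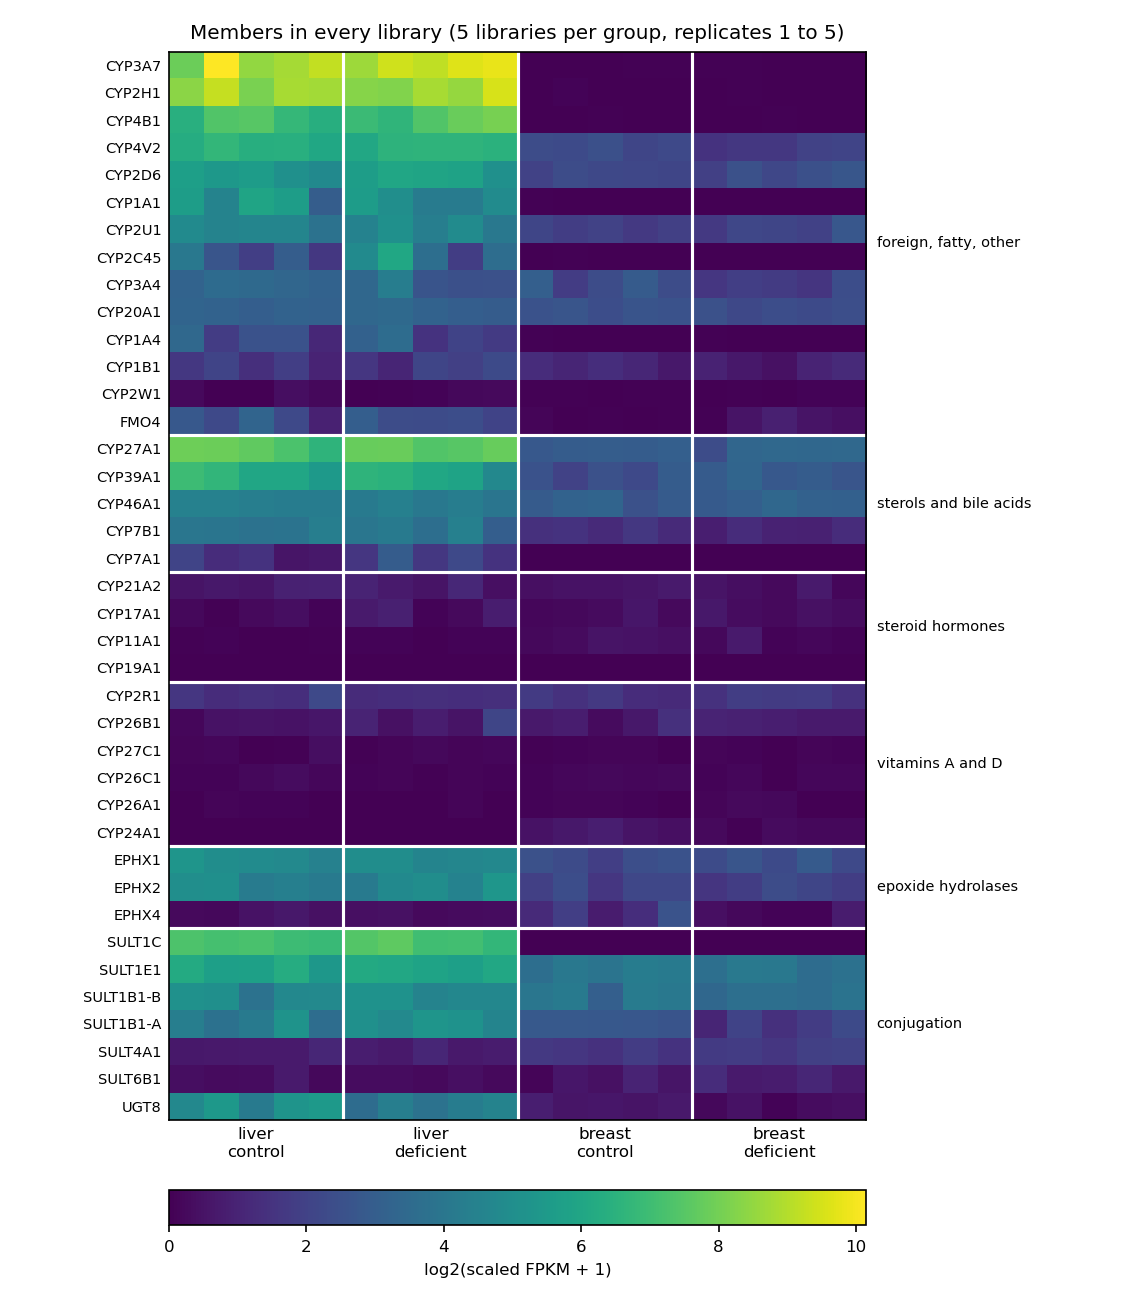
Level of each of the 39 genes (rows, grouped by role) in each of the 20 libraries (columns, replicates 1 to 5 within a group), as log2(scaled FPKM + 1) in colour. CYP3A7, CYP2H1, CYP27A1, CYP4B1 and SULT1C are bright in liver, and of these only CYP27A1 rises clearly above 0 in breast muscle.

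In liver 26 of the 39 genes had a mean of at least 1 scaled FPKM over the 10 libraries. Of these, 5 were at 100 or more, 14 between 10 and 100 and 7 between 1 and 10. In breast muscle 17 genes reached 1, and 2 of these reached 10. Most neighbours in the order of levels were not separated. The range over 10 libraries overlapped that of the next gene below for 24 of 25 such pairs in liver, the exception being CYP2H1 above CYP27A1, and for all 16 in breast muscle. The summed level of all 39 genes was 1948 ± 515 in liver control, 2181 ± 325 in liver deficient, 94.2 ± 7.13 in breast control and 85.8 ± 9.49 in breast deficient libraries (SD, n = 5 each).

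A pair of drug-metabolising P450s had the highest means in liver. CYP3A7 (ENSGALG00000004449, 14:3919206-3928547, galGal4), of the family that oxidises drugs and steroids, was at 235, 1133, 365, 435 and 594 scaled FPKM in control livers and at 399, 682, 574, 805 and 902 in deficient livers. The library with the highest value, control 2, and the one with the lowest, control 1, were both on the control diet. CYP2H1 (ENSGALG00000005795, 6:17129992-17137315), a P450 of chicken liver known for its induction by phenobarbital, was at 329, 617, 277, 452 and 426 in control and at 316, 301, 457, 374 and 734 in deficient livers. Its diets overlapped as well. The ranges of CYP3A7 and CYP2H1 over the 10 libraries overlapped, so their order is not separated. CYP3A7 also overlapped the gene with the next highest mean, CYP27A1, which was above it in control 1.

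By mean, next in liver was CYP27A1 (ENSGALG00000002470, 7:21913412-21919652), the mitochondrial sterol 27-hydroxylase, with 242, 233, 201, 155 and 97.3 scaled FPKM in control and 223, 227, 169, 180 and 218 in deficient livers. Control 5 was the lowest of the 10. CYP4B1 (ENSGALG00000010469), of the family that hydroxylates fatty acids, had 83.1, 169, 183, 108 and 81.3 in control and 118, 99.8, 167, 223 and 269 in deficient livers. SULT1C (ENSGALG00000016805), which sulfates phenols in other animals, was the steadiest of the 5 leaders, at 157, 143, 149, 123 and 116 in control and 171, 199, 129, 133 and 105 in deficient livers. These 3 genes overlapped each other in range.

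CYP4V2, a fatty acid omega-hydroxylase, followed with 77.9, 105, 80.7, 84.1 and 65.0 scaled FPKM in control and 67.4, 94.6, 96.9, 96.3 and 87.9 in deficient livers. CYP39A1, an oxysterol 7-alpha-hydroxylase, was at 123, 101, 63.1, 63.4 and 44.0 in control and at 97.3, 89.3, 64.8, 58.6 and 25.7 in deficient livers. Its lowest value within each diet was in replicate 5. Its diets overlapped, with 44.0 to 123 in control and 25.7 to 97.3 in deficient livers. SULT1E1, the oestrogen sulfotransferase, had 72.3, 51.3, 52.8, 75.8 and 40.0 in control and 69.9, 67.1, 58.6, 52.5 and 66.0 in deficient livers.

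The sterol and bile acid enzymes were the one role in which all members, 5 of 5, reached 1 scaled FPKM in liver. After CYP27A1 and CYP39A1 came CYP46A1, the cholesterol 24-hydroxylase, with a mean of 18.3, and CYP7B1, the oxysterol 7-alpha-hydroxylase of the alternative bile acid route, with 14.7. CYP7A1, the rate-limiting enzyme of the classical bile acid route, had the lowest mean of the 5, at 2.40, and its transcript coverage was 1.29 to 16.2 over the liver libraries. The CYP27A1 locus ends inside that of PRKAG3 (7:21919596-21923725), and the sources used here do not say that counting used strand, so reads of that overlap cannot be assigned.

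Among the other conjugating enzymes, UGT8 had a mean of 24.8 scaled FPKM in liver. It transfers galactose to ceramide and is known in mammals for its part in myelin. A cluster on chromosome 4 holds 3 sulfotransferase genes, 2 of which carry the symbol SULT1B1, an enzyme that sulfates thyroid hormones and small phenols. They are called SULT1B1-A (ENSGALG00000023122, 4:51208551-51210637) and SULT1B1-B (ENSGALG00000023120, 4:51210795-51213076) here, in order of position, and SULT1E1 (ENSGALG00000011812, 4:51214007-51215578) follows. Their liver means were 25.1 for SULT1B1-A and 27.4 for SULT1B1-B, with overlapping ranges. Reads shared by such close relatives may have been split between them, and the same holds for CYP1A1 with CYP1A4 and for CYP3A4 with CYP3A7.

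The other foreign-compound enzymes were spread over the range below. CYP2D6 had a liver mean of 46.4 scaled FPKM, CYP1A1, which is induced through the aryl hydrocarbon receptor, 33.1, CYP2U1, a fatty acid hydroxylase, 22.9, and CYP2C45, a drug-inducible chicken P450, 15.2. CYP3A4 was at 8.93, CYP20A1, whose substrate is not known, at 8.15, CYP1A4 at 4.91, FMO4 at 4.56 and CYP1B1 at 2.37. EPHX1, the microsomal epoxide hydrolase, had 27.9 and EPHX2, the soluble one that opens fatty acid epoxides, 25.3.

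The steroid hormone enzymes CYP11A1, CYP17A1, CYP21A2 and CYP19A1, which act in adrenal and gonad, all had means under 1 scaled FPKM in both tissues, and CYP19A1, the aromatase, was listed at 0 in all 20 libraries. Of 6 enzymes of vitamins A and D only CYP2R1, a vitamin D 25-hydroxylase, reached 1, with a mean of 1.79 in liver and 1.99 in breast muscle. The retinoic acid hydroxylases CYP26A1, CYP26B1 and CYP26C1, the retinoid enzyme CYP27C1 and CYP24A1, which inactivates vitamin D, did not. CYP24A1 was listed at 0 in the 5 control livers. CYP2W1, SULT4A1, SULT6B1 and EPHX4 were also under 1 in liver.

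In breast muscle the highest means were those of 2 of the 6 sulfotransferases, SULT1E1 and SULT1B1-B. SULT1E1 was at 11.7, 15.8, 14.1, 18.4 and 17.3 scaled FPKM in control and at 11.95, 16.1, 15.6, 11.2 and 12.8 in deficient libraries. SULT1B1-B had 14.9, 16.5, 7.35, 17.7 and 15.9 in control and 9.54, 12.1, 11.9, 11.1 and 13.4 in deficient libraries. Both overlapped between diets, and they overlapped each other.

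Next by mean in breast muscle were 3 of the 5 sterol and bile acid enzymes. CYP27A1 was at 5.89, 6.69, 6.91, 6.72 and 7.47 scaled FPKM in control and at 4.20, 9.08, 9.91, 9.60 and 9.69 in deficient libraries. In 4 of the 5 deficient libraries it was above the whole control group, and in deficient 1 it was below it. The CYP27A1 locus overlaps that of PRKAG3, and reads of the overlap cannot be assigned in breast muscle either. CYP46A1 had 6.63, 8.22, 8.59, 4.75 and 6.58 in control and 6.42, 7.46, 9.58, 7.90 and 7.71 in deficient libraries. CYP39A1 had 4.91, 3.05, 4.73, 3.66 and 6.64 in control and 6.59, 8.81, 5.94, 6.64 and 5.33 in deficient libraries. The ranges of CYP27A1, CYP46A1 and CYP39A1 overlapped.

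The remaining members at 1 or more in breast muscle had means of 4.55 (CYP20A1), 4.40 (EPHX1), 4.15 (SULT1B1-A), 3.86 (CYP2D6), 3.83 (CYP3A4), 3.18 (CYP4V2), 3.15 (CYP2U1), 3.08 (EPHX2), 2.29 (SULT4A1), 1.99 (CYP2R1), 1.38 (CYP7B1) and 1.25 (EPHX4). SULT4A1 is best known from brain, and the substrate of EPHX4 is not settled. At the other end, SULT1C was listed at 0 in all 10 breast libraries. For CYP3A7, CYP2H1, CYP4B1, CYP1A1, CYP1A4, CYP2C45 and CYP7A1 the authors' deposited table gave a lower bound of 0 in all 10.

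Liver was compared with breast muscle within each diet, with libraries scaled over all 20. On the control diet every liver library was above every breast library for 23 of the 39 genes, against 21.5% of all 17104 genes taken without a filter, and below for 4, against 21.6%. On the deficient diet 24 were above, against 21.5%, and 4 below (SULT4A1, CYP24A1, SULT6B1 and CYP2R1), against 21.1%. These counts include genes near 0. A call below is an adjusted p under 0.05 by limma over all genes tested. Among the 28 members at 1 or more in at least 1 tissue, 25 were called higher in liver on the control diet (35.8% of 11211 genes) and 2 lower (34.3%), with 70.1% of genes called in all. On the deficient diet 25 were higher (37.4%) and 1 lower (36.4%), with 73.8% called in all. Genes that pass this filter through 1 tissue alone entered because their mean was higher there, so nothing is read from these counts. Of the 15 members with a mean of at least 1 in both tissues, 14 were called higher in liver on the control diet, against 34.5% of 9142 genes, and 0 lower, against 31.9%. On the deficient diet 14 were called higher, against 36.1%, and 0 lower, against 35.0%. CYP2R1 was the member not called, with a log2 difference (liver minus breast) of 0.13 (SE 0.154, adjusted p = 0.468) on the control diet and of -0.34 (SE 0.154, adjusted p = 0.0556) on the deficient diet.

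**Figure D2:**
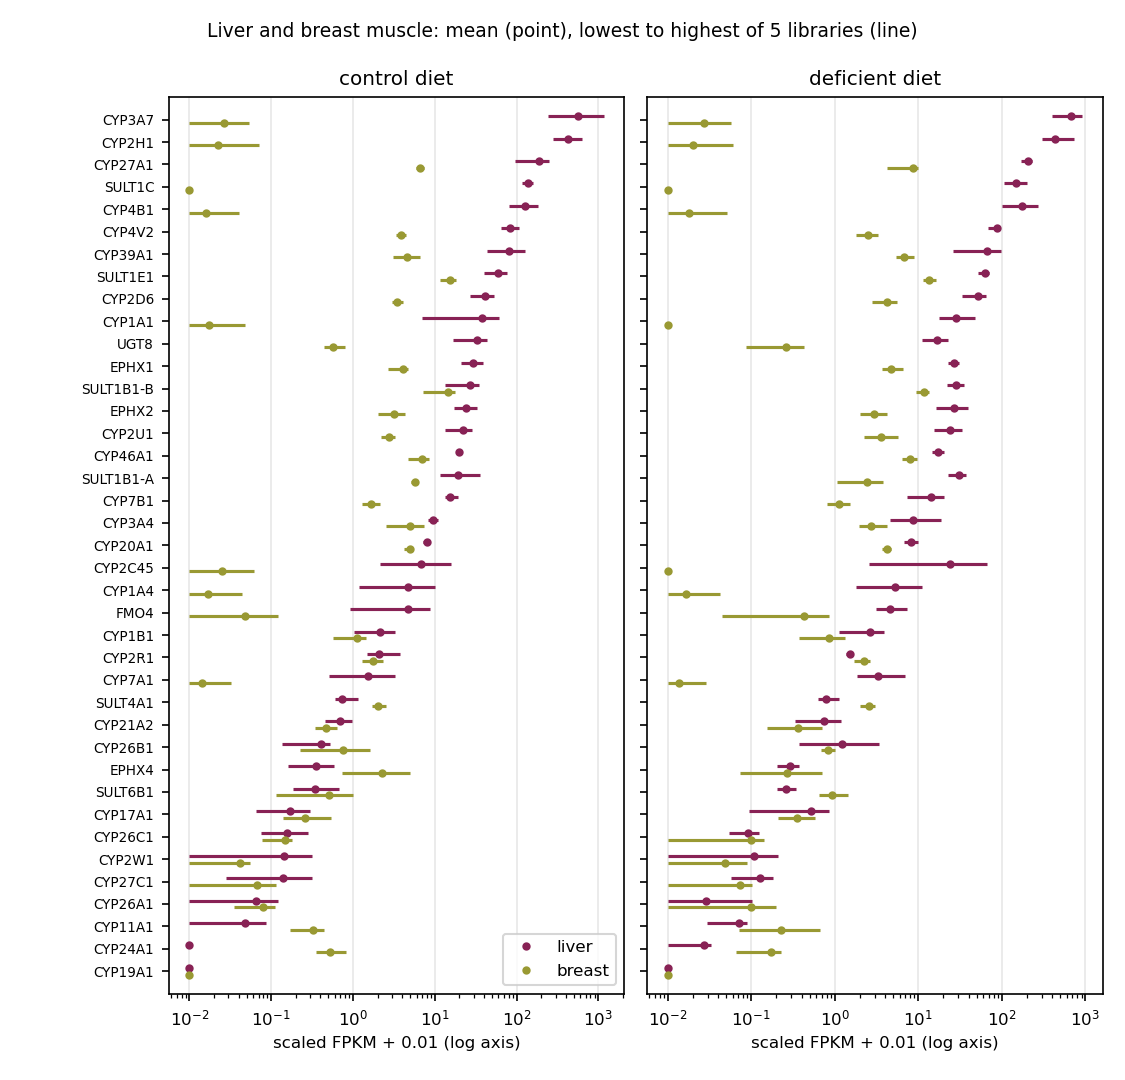
Mean (point) and lowest to highest of 5 libraries (line) for each of the 39 genes in liver and breast muscle, on a log axis of scaled FPKM with a small offset, for the control diet (left) and the deficient diet (right). CYP3A7, CYP2H1, CYP4B1 and SULT1C lie near the left edge in breast muscle and far to the right in liver. SULT4A1 lies higher in breast muscle on both diets.

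The largest differences belonged to genes that were near 0 in breast muscle. On the log2(scaled FPKM + 1) scale liver exceeded breast muscle by 8.90 (SE 0.284) for CYP3A7 on the control diet and by 9.31 on the deficient diet. The difference was 8.66 (SE 0.206) and 8.68 for CYP2H1, 6.90 (SE 0.241) and 7.35 for CYP4B1, and 4.96 (SE 0.397) and 4.79 for CYP1A1. With an offset of 0.1 in place of 1 the CYP3A7 difference on the control diet was 12.04, so these values depend on the offset and are no bounds on a fold. SULT1C, listed at 0 in breast muscle, gets no fold.

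Members measured well in both tissues differed less. In ratios of means, liver stood above breast muscle 28.2-fold for CYP27A1 on the control diet and 23.8-fold on the deficient diet. The ratio was 21.6 and 35.8 for CYP4V2, 17.6 and 10.003 for CYP39A1, 11.7 and 12.4 for CYP2D6, and 7.17 and 5.68 for EPHX1. Among the 14 called it was smallest for CYP20A1, at 1.65 and 1.99. It was 1.87 and 2.43 for SULT1B1-B and 2.87 and 2.17 for CYP46A1. The CYP20A1 locus (7:13169486-13182609) holds the microRNA gene gga-mir-1659 (7:13177026-13177126) and ends inside another gene (7:13181938-13187827). Only reads of these overlaps cannot be assigned. The same limit holds for the ratio of CYP27A1, whose locus overlaps that of PRKAG3 at 7:21919596-21919652. UGT8, under 1 in breast muscle, had a ratio of 58.5 on the control diet and 66.9 on the deficient diet. Its breast means were 0.567 and 0.251, with few reads behind them, so no difference between the diets is read from these ratios.

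SULT4A1 was lower in liver on both diets. It was at 2.19, 2.05, 1.72, 2.50 and 1.83 scaled FPKM in breast control and at 2.27, 2.50, 2.01, 2.75 and 3.06 in breast deficient libraries, and did not exceed 1.13 in any liver library. The log2 difference was -0.82 (SE 0.112, adjusted p = 2.2e-06) on the control diet and -0.996 (SE 0.112, adjusted p = 1.3e-07) on the deficient diet. EPHX4 was lower in liver on the control diet, by -1.13 on the log2 scale (SE 0.236, adjusted p = 0.000285). On the deficient diet its difference was 0.05 (SE 0.236, adjusted p = 0.867). SULT4A1 and EPHX4 entered the test through breast muscle alone, their liver means being under 1, so these p-values support nothing further. CYP24A1 and CYP11A1, below the filter in both tissues, were at higher levels in every breast control library than in any liver control library. On the deficient diet this held for CYP24A1, while CYP11A1 overlapped between tissues. The CYP11A1 locus overlaps that of CCDC33, with the same limit on assigning reads.

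The deficient diet was compared with the control diet in liver over 10185 genes, of which 26 were members. Of these 26, 0 were called, and so were 0.0% of all genes. At an unadjusted p under 0.05 limma gave 3 of the 26, or 11.5%, against 8.34% of all genes tested. The diets overlapped in range for all 26, against 1.87% of genes whose diets did not overlap. The median log2 change (deficient minus control) was 0.11 over the members and 0.01 over all genes tested, with 18 members above 0 and 8 below.

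**Figure D3:**
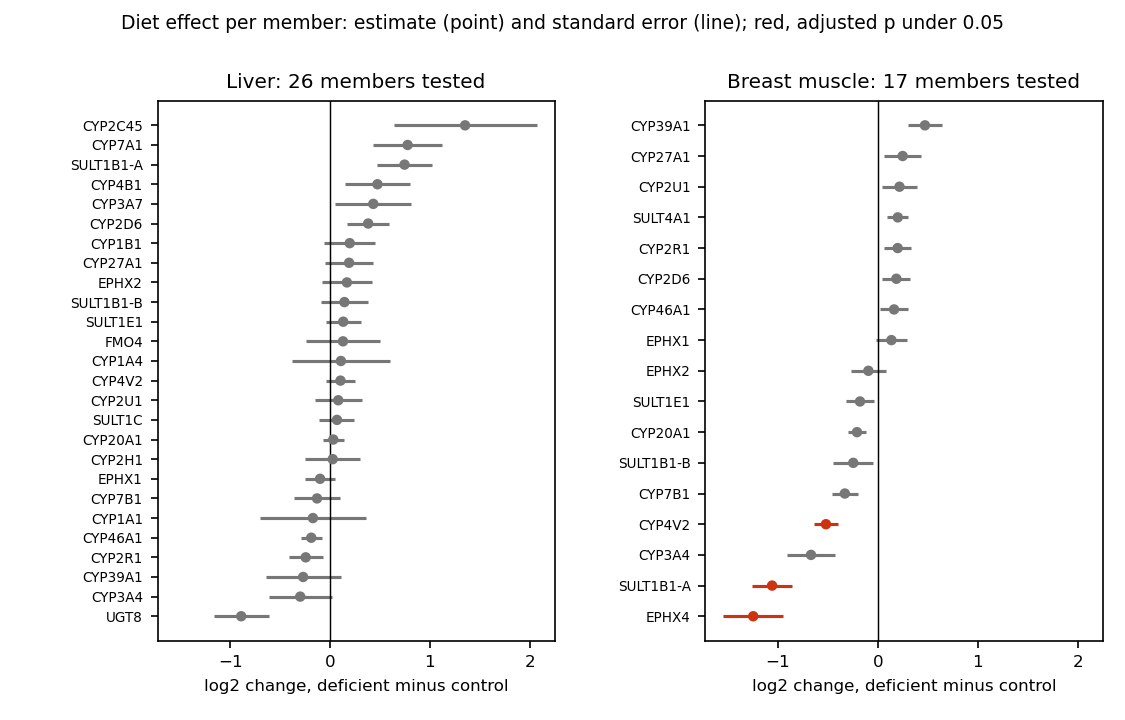
Log2 change from control to deficient diet (point) with its standard error (line) for the members tested in liver (left, 26 genes) and breast muscle (right, 17 genes), on the log2(scaled FPKM + 1) scale; red marks an adjusted p under 0.05. No member is red in liver, and SULT1B1-A, EPHX4 and CYP4V2 are red and below 0 in breast muscle.

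The 5 members with the smallest p in liver were these. UGT8 had 25.5, 41.9, 16.7, 36.6 and 43.3 scaled FPKM in control and 10.9, 19.3, 13.0, 18.3 and 22.4 in deficient livers. Only control 3 lay within the deficient range. The log2 change was -0.89 (SE 0.276, adjusted p = 0.399), from a mean of 32.8 ± 11.4 to one of 16.8 ± 4.72 (SD, n = 5 each).

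SULT1B1-A had 19.4, 12.7, 16.8, 35.8 and 11.5 in control and 32.8, 26.1, 37.8, 34.8 and 22.8 in deficient livers. Control 4 was the one control library inside the deficient range. The log2 change was 0.75 (SE 0.273, adjusted p = 0.469). SULT1B1-B, its neighbour, had a change of 0.15 (SE 0.24, adjusted p = 0.919).

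CYP7A1 had 3.19, 1.44, 1.78, 0.497 and 0.575 scaled FPKM in control and 2.08, 6.83, 2.09, 3.69 and 1.84 in deficient livers. Control 1 lay among the deficient libraries and the other 4 controls below all of them. The log2 change was 0.78 (SE 0.344, adjusted p = 0.580). CYP2C45 had 15.7, 5.38, 2.66, 7.07 and 2.12 in control and 27.9, 65.4, 11.7, 2.60 and 11.2 in deficient livers, a log2 change of 1.35 (SE 0.715, adjusted p = 0.671). CYP2D6 had a mean of 40.2 ± 10.1 in control and 52.6 ± 11.9 in deficient livers (SD, n = 5 each), a log2 change of 0.38 (SE 0.213, adjusted p = 0.693). Over left-out libraries and other settings the lowest adjusted p of the 5 genes was 0.150, for UGT8.

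The other P450s of foreign compounds had changes of both signs in liver, none of them called. The log2 change was 0.43 (SE 0.382) for CYP3A7, 0.03 (SE 0.277) for CYP2H1, 0.48 (SE 0.324) for CYP4B1, -0.17 (SE 0.527) for CYP1A1 and -0.30 (SE 0.314) for CYP3A4. Among the bile acid enzymes beside CYP7A1 it was 0.19 (SE 0.236) for CYP27A1, -0.13 (SE 0.232) for CYP7B1 and -0.27 (SE 0.374) for CYP39A1. The smallest adjusted p among these 8 genes was 0.780, for CYP4B1.

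Members varied more between livers of the same diet than most genes did. The pooled within-diet SD of log2(scaled FPKM + 1) had a median of 0.44 over the 26 members and of 0.22 over all genes tested in liver, and 24 of the 26 members were above the latter. It was 1.30 for CYP2C45, 0.95 for CYP1A1, 0.89 for CYP1A4, 0.68 for CYP3A7 and 0.67 for FMO4 and CYP39A1. CYP2C45 ran from 2.12 to 65.4 scaled FPKM over the 10 livers, and CYP1A1 from 7.01 to 60.2. CYP46A1, with 0.15, and CYP20A1, with 0.16, were the steadiest. In breast muscle the median was 0.27 over the 17 members and 0.20 over all genes tested, and 13 of the 17 were above the latter. The offset of 1 compresses the spread of low genes, and members were not matched to other genes by level. The part of level in these differences was not tested. Control 5 was the lowest of the 10 livers for CYP2C45, CYP1A1, CYP1A4 and FMO4. These SDs are descriptions of the libraries, with no test.

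**Figure D4:**
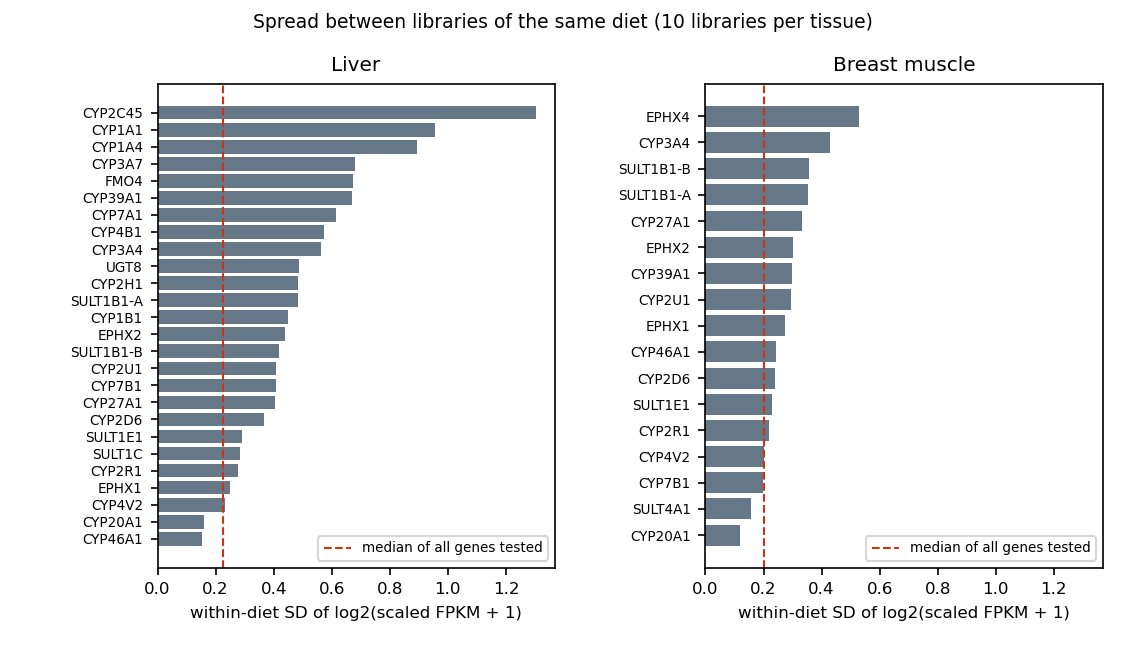
Pooled SD of log2(scaled FPKM + 1) between libraries of the same diet for the 26 members tested in liver (left) and the 17 tested in breast muscle (right); the dashed line is the median of all genes tested. In liver 24 of 26 bars pass the line, with CYP2C45, CYP1A1 and CYP1A4 longest.

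CYP1A1 and CYP1A4 lie 1989 bases apart on chromosome 10 (10:1938235-1941050 and 10:1943039-1946669). CYP1A1 was at 49.8, 22.3, 60.2, 49.0 and 7.01 scaled FPKM in control and at 47.2, 31.6, 17.6, 17.6 and 28.4 in deficient livers. CYP1A4 was at 9.72, 2.48, 4.84, 4.84 and 1.17 in control and at 7.77, 11.1, 1.81, 3.08 and 2.34 in deficient livers. Control 5 was the lowest of the 10 livers for both genes. The same library was the lowest for CYP27A1, CYP2C45, EPHX1, CYP4B1, SULT1E1, CYP2D6, CYP4V2, FMO4, SULT1B1-A, CYP1B1 and CYP2U1. It was the highest for CYP2R1 and UGT8. A low value in control 5 is thus not particular to the CYP1A pair. Deviations from the diet means gave a Pearson's r of 0.77 over 10 livers (two-sided exact permutation within diets, p = 0.0109, adjusted p = 0.0872 over 8 neighbour pairs) and a Spearman's rho of 0.78 (p = 0.0129, adjusted p = 0.103). Without the 2 livers farthest from the median of CYP1A1, r was 0.77. The relation did not pass the adjustment, and shared reads between the genes were not tested. The other 7 pairs, among them SULT1B1-A with SULT1B1-B in each tissue, had an adjusted p of at least 0.49.

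In breast muscle 3 of the 17 members tested were called, or 17.6%, against 28.1% of all 10173 genes tested. All 3 were lower on the deficient diet, against 13.9% of all genes that were lower and 14.2% that were higher. Of all genes called, 50.5% were higher, and 9.14% were higher where the libraries were left unscaled. Diets did not overlap for the same 3, all with deficient below control, against 18.4% of all genes in either direction and 9.46% in that one. At an unadjusted p under 0.05 there were 7 of 17, or 41.2%, against 40.6%. In either direction the members' share of calls was near or under the background, and in the lower direction it was 17.6% against 13.9%. EPHX4, 1 of the 3, passed the filter through its control level alone, so nothing is read from the share in the lower direction. The median log2 change was -0.10 over the members and 0.02 over all genes tested.

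SULT1B1-A was at 6.06, 6.19, 6.01, 5.83 and 5.21 scaled FPKM in control and at 1.05, 3.14, 1.68, 2.49 and 3.82 in deficient libraries. Every deficient library was below every control library. The mean fell from 5.86 ± 0.385 to 2.44 ± 1.11 (SD, n = 5 each), a log2 change of -1.06 (SE 0.199, adjusted p = 0.00445). SULT1B1-B, next to it, had a change of -0.25 (SE 0.2, adjusted p = 0.382), and SULT1E1 one of -0.18 (SE 0.137, adjusted p = 0.354).

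EPHX4 (ENSGALG00000006019, 8:13219594-13236081) was at 1.30, 2.67, 0.732, 1.51 and 5.01 scaled FPKM in control and at 0.333, 0.148, 0.0639, 0.0626 and 0.690 in deficient libraries. The groups did not overlap, though control 3 and deficient 5 were close. The log2 change was -1.25 (SE 0.298, adjusted p = 0.0124). It passed the filter through its control level, the deficient mean being 0.259, and its transcript coverage was between 0.104 and 10.7. In the authors' deposited table the lower bound of EPHX4 was 0 in 3 of the 10 breast libraries.

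CYP4V2 (ENSGALG00000013535, 4:60965220-60977430) was at 4.08, 3.80, 4.50, 3.39 and 3.77 scaled FPKM in control and at 1.80, 2.14, 2.09, 3.02 and 3.24 in deficient libraries. All deficient values were below the lowest control, the nearest being deficient 5. The mean fell from 3.91 ± 0.41 to 2.46 ± 0.632 (SD, n = 5 each), a log2 change of -0.52 (SE 0.124, adjusted p = 0.0125).

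**Figure D5:**
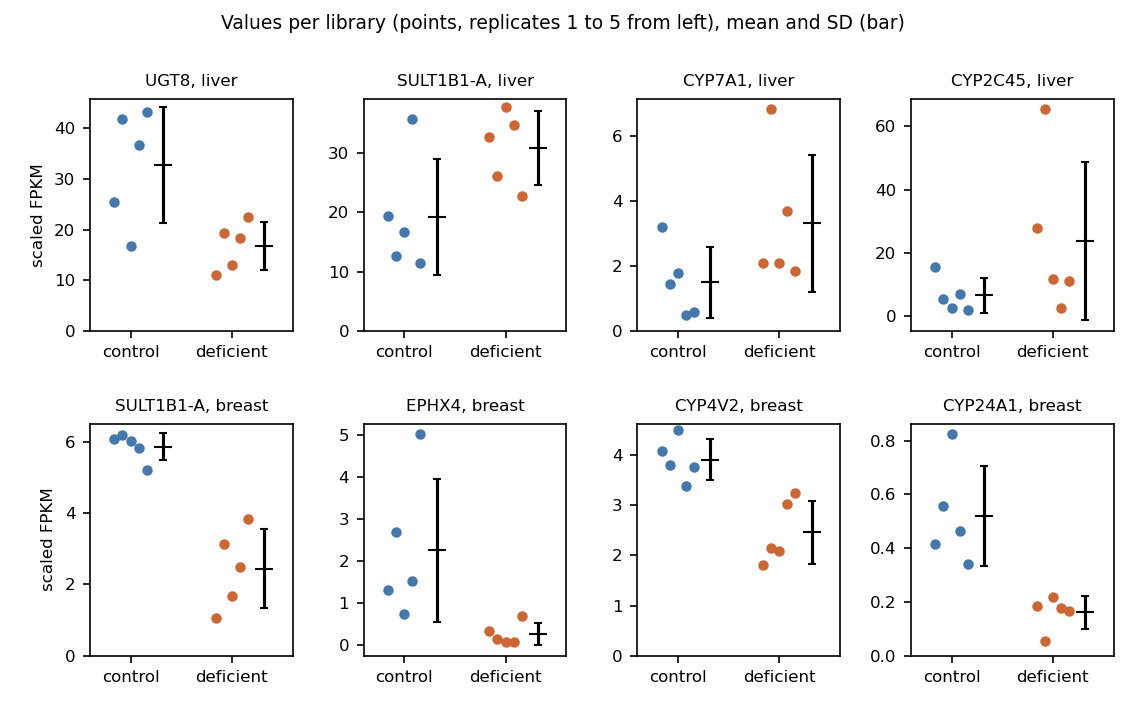
Scaled FPKM of single members in each library (points, replicates 1 to 5 from the left within a diet), with mean and SD (bar), for liver (top) and breast muscle (bottom). The diets overlap in all 4 liver panels, while SULT1B1-A, EPHX4, CYP4V2 and CYP24A1 separate by diet in breast muscle.

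The next members in order of p were not called. CYP3A4 had 7.52, 2.52, 4.16, 6.58 and 4.14 scaled FPKM in breast control and 2.06, 2.69, 2.39, 1.94 and 4.25 in breast deficient libraries, a log2 change of -0.67 (SE 0.238, adjusted p = 0.0565). CYP39A1 had a log2 change of 0.47 (SE 0.17, adjusted p = 0.0590), with a mean of 4.60 ± 1.37 in control and 6.66 ± 1.31 in deficient libraries (SD, n = 5 each). Both were called under some other settings, where CYP3A4 was lower and CYP39A1 higher. CYP27A1 had 0.25 (SE 0.188, adjusted p = 0.349), CYP46A1 0.16 (SE 0.143, adjusted p = 0.421) and CYP7B1 -0.33 (SE 0.131, adjusted p = 0.0821).

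With no filter on low values, 3 of the 20 members with a mean under 1 but above 0 were called as well. The share of all genes called with no filter is not given here, so nothing is read from this count. CYP24A1 was at 0.415, 0.556, 0.825, 0.465 and 0.343 scaled FPKM in breast control and at 0.187, 0.0555, 0.219, 0.177 and 0.165 in breast deficient libraries, a log2 change of -0.38 (adjusted p = 0.0104). UGT8 had a change of -0.34 (adjusted p = 0.0203) and FMO4 one of 0.43 (adjusted p = 0.0352). All 3 had means under 1, where the offset of 1 compresses changes and few reads stand behind a value. FMO4 had a lower bound of 0 in 6 of 10 breast libraries of the authors' deposited table.

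In bulk RNA, fewer cells of a type and less RNA per cell cannot be told apart. Markers of leukocytes moved with diet in breast muscle. The sum of 12 macrophage markers ran from 1733 to 2102 scaled FPKM in control and from 977 to 1146 in deficient libraries (exact permutation p = 0.00794, adjusted p = 0.0222 over 14 lists), and 10 of 12 were called lower. Most of this sum was CD74, with a mean of 1375 in control and 806 in deficient libraries. The sums of 13 lymphocyte markers (86.6 to 127 against 44.5 to 71.1) and of 9 heterophil markers (65.1 to 136 against 25.2 to 53.8) were lower at the same exact permutation p, with 7 of 9 and 5 of 8 tested members called lower. Among those called lower, CD4 (deficient mean 0.717) and MMP9 (deficient mean 0.491) passed the filter through their control level alone. The sum of 7 erythroid markers was 261 ± 79.5 in control and 269 ± 71.4 in deficient libraries (SD, n = 5 each, exact permutation p = 0.802), with 0 of 5 called by limma. None of these leukocyte or erythroid markers was at 0 in all breast libraries. The sum of 10 cholangiocyte markers ran from 106 to 237 against 13.1 to 62.7 (adjusted p = 0.0222 by the same exact permutation). Most of it was SPP1, which had 147 ± 45.1 in control and 15.1 ± 21.3 in deficient libraries (SD, n = 5 each), and CLDN4 and KRT7 were at 0.

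Skeletal muscle markers were higher on the deficient diet, summing to between 28385 and 47085 scaled FPKM in control and to between 52007 and 84432 in deficient libraries (exact permutation p = 0.00794, adjusted p = 0.0222), with 8 of 10 called higher and 1 lower. Marker sums are of scaled values. The breast scaling factors, by which values were divided, were 1.03 to 1.28 in control and 0.772 to 0.994 in deficient libraries. Sums without scaling were not tested. Of 6 tested markers of cardiac and slow muscle, 5 were called lower (MYL2, MYH15, ATP2A2, TNNT2 and TNNI1) and 1 higher (TNNC1), with a median log2 change of -1.43. MYH15 had a deficient mean of 0.483 and passed the filter through its control level alone. The sum of the cardiac and slow muscle list, most of which was TNNC1, ran from 3025 to 7107 in control and from 4648 to 11508 in deficient libraries (exact permutation p = 0.0476, adjusted p = 0.0833). The sum of 22 hepatocyte markers was 1911 to 3225 in control and 709 to 2629 in deficient libraries (exact permutation p = 0.0238, adjusted p = 0.0556). Most of it was APOA1, with a mean of 2592 in control and 1349 in deficient libraries. Of 6 tested members 3 were called lower: TTR, APOA1 and TF, which was matched by synonym to the symbol LTF. HNF4A, AGXT and SERPINA10 of the hepatocyte list were at 0 in all breast libraries. The part of any of these cell types in the fall of SULT1B1-A, EPHX4 and CYP4V2 was not tested. In liver the smallest adjusted p of a marker sum, by the same exact permutation, was 0.222. The p of 0.00794 is the smallest that 252 labelings of 10 libraries allow.

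The diet effect in liver minus that in breast muscle was tested for the 15 members with a mean of at least 1 in both tissues. It was called for 2 of them, or 13.3%, both with the liver change above the breast change, against 9.22% of 9142 genes in either direction, 5.24% in that one and 3.98% in the other. SULT1B1-A had a difference of 1.81 on the log2 scale (SE 0.351, adjusted p = 0.00490), made of 0.75 in liver, which was not called, and -1.06 in breast muscle. CYP4V2 had one of 0.63 (SE 0.192, adjusted p = 0.0474), made of 0.11 and -0.52. The CYP4V2 call was lost under quantile normalization (adjusted p = 0.0770), with no filter (adjusted p = 0.0569) and without any 1 of 16 of the 20 libraries, where the highest adjusted p was 0.0844. Each tissue's own libraries enter these differences once, so the 2 diet effects share no control library. The labels leave unsaid whether they share control birds.

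Other genes of these pathways were followed in 9 lists. In liver 0 genes of any list were called by limma, with medians between -0.09 and 0.13 on the log2 scale, against 0.01 over all genes tested. In breast muscle the counts below stand beside a background of 28.1% called, 14.2% higher and 13.9% lower, and a median of 0.02.

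Of 14 genes of electron supply to P450s and of haem synthesis and breakdown, 2 were called in breast muscle, both lower (median -0.11). They were HMOX1, the haem oxygenase, which fell from 30.9 ± 10.4 to 13.7 ± 4.89 scaled FPKM (log2 change -1.12, adjusted p = 0.0103), and CYB5A, cytochrome b5, from 61.7 ± 9.63 to 40.7 ± 8.89 (-0.60, adjusted p = 0.0141; SD, n = 5 each). Of 16 transcription regulators of these enzymes, 5 were lower and 1 higher (median -0.10). VDR, the vitamin D receptor, fell from 1.76 ± 0.222 to 0.439 ± 0.0959 (-0.94, adjusted p = 0.000811), CEBPB from 43.6 ± 8.52 to 16.1 ± 5.22 (-1.41, adjusted p = 0.00176) and CEBPA from 30.5 ± 6.73 to 10.5 ± 4.18 (-1.51, adjusted p = 0.00335). PPARG had -0.76 (adjusted p = 0.0149). VDR passed the filter through its control level alone.

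Of 15 genes for the supply and removal of sulfate, 3 were lower and 0 higher (median -0.20). PAPSS1, which makes the sulfate donor PAPS, fell from 11.6 ± 1.02 to 7.59 ± 1.11 scaled FPKM (-0.56, adjusted p = 0.0038), and the sulfatases ARSB (-0.71, adjusted p = 0.00305) and ARSK (-0.37, adjusted p = 0.0179) were lower. Of 9 genes of glucuronate supply and removal, 2 were higher, SLC35D1 (0.36) and UGP2 (0.66), and 2 lower, GUSB (-0.68) and AKR1A1 (-0.43). Of 11 other bile acid genes, 2 were higher and 1 lower (median 0.14): FABP6, a bile acid binding protein, rose from 2.76 ± 0.596 to 6.48 ± 0.941 (0.998, adjusted p = 0.00125), AMACR had 0.36, and CH25H, the cholesterol 25-hydroxylase, fell from 6.92 ± 2.26 to 2.08 ± 1.14 (-1.39, adjusted p = 0.00386).

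Of 30 other enzymes of oxidation and conjugation, 6 were higher and 6 lower (median -0.01). ALDH2, a mitochondrial aldehyde dehydrogenase, rose by 0.79 (adjusted p = 0.00351) and GSTT1, a glutathione transferase, by 0.77 (adjusted p = 0.00284). A pair of genes with the symbol GSTA3 moved in opposite directions, by -1.95 and 0.97. Of 23 other steroid, retinoid and vitamin D genes, 3 were higher and 3 lower (median -0.03). RDH14, a retinol dehydrogenase, rose from 12.2 ± 1.42 to 28.4 ± 4.55 scaled FPKM (1.14, adjusted p = 0.000811), while TSPO (-0.66) and DHRS3 (-0.56) fell. ALDH1A1 had 0.443 ± 0.168 in control and 2.997 ± 2.098 in deficient libraries (SD, n = 5 each; log2 change 1.32, adjusted p = 0.0106) and passed the filter through its deficient level alone.

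Of 15 transporters, 2 were higher, ABCC9 (0.61) and ABCG2 (0.55), and 2 lower, SLCO2A1 (-0.53) and ABCC3 (-0.46), with a median of -0.15. ABCC3 had a deficient mean of 0.805, under the filter. Of 13 eicosanoid genes, 2 were higher and 5 lower (median -0.16). ALOX5AP, which serves leukotriene synthesis in leukocytes, fell by 0.87 on the log2 scale (adjusted p = 0.00262), TBXAS1, the thromboxane synthase, by 1.06 (adjusted p = 0.00451), LTA4H by 0.81 (adjusted p = 0.00542) and PLA2G4A by 0.71 (adjusted p = 0.0057). TBXAS1 had a deficient mean of 0.524 and passed the filter through its control level. These fell beside the leukocyte marker sums given above, whose part in them was not tested.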

How the data were processed

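Per the file headers the authors deposited FPKM per gene and per isoform with lower and upper bounds, and coverage, a signal of mean read depth per isoform. The submitters' processing notes name TopHat2 2.0.9, Bowtie 1.0.0, Cufflinks 2.1.1, Cuffdiff 2.1.1 and the build galGal4, without roles. Coordinates are of galGal4. Transcript length, also deposited, served with coverage to estimate assigned bases.

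Libraries of a tissue were scaled by median ratios to each gene's geometric mean (all 20 together for tissue differences). In breast muscle the factors ran from 1.03 to 1.28 in control and from 0.772 to 0.994 in deficient libraries. The scaling itself thus differed by diet there. Genes whose mean scaled FPKM in the tissue reached 1 were tested as log2(scaled FPKM + 1) in limma 3.58.1 with a mean-variance trend (R 4.3.3), with diet as the only term. Tissue differences and the difference between diet effects came from fits with 1 coefficient per group, the former for genes at 1 in either tissue and the latter in both. Tests were two-sided, with Benjamini-Hochberg adjustment over all genes tested, and a call is an adjusted p under 0.05. Fold changes on this scale understate those of low genes. Estimates marked as failed (3 genes in breast muscle, 1 in liver, no member) were left out. Sums and correlations used exact permutation in Python 3.11.15 with scipy 1.17.1. The fits were tested on simulated data.

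The members, 9 pathway lists, 14 marker lists and tests were chosen with earlier results of these data known. Of 431 list entries, 318 were found by symbol and 25 by synonym. Full statistics are given for members called and, with fewer than 5 calls in a tissue, for the 5 smallest p; library values for the 8 highest members in liver and the 5 in breast muscle; for tissue the 5 largest differences each way; and up to 4 called genes per list. CYP24A1, the neighbouring CYP1A pair and the values of other members were added after their values were seen. RefSeq names (assembly GRCg7b) matched 31 members by symbol and 7 by synonym, where CYP3A7 is CYP3A5, CYP2H1 is CYP2C23a, CYP2C45 is CYP2C18, CYP4B1 is CYP4A22, SULT1C is SULT1C3, CYP21A2 is CYP21A1 and CYP1A4 is CYP1A1. The gene called CYP1A1 here matched RefSeq CYP1A1 too, by symbol, so the names of this neighbouring pair conflict and are not settled. EPHX4 had no match. Alternatives covered scaling, offset, filter, variance model, library weights, a replicate block and left-out libraries.

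Equal replicate numbers were checked for pairing. P-values of limma set a difference between groups against the spread between libraries within groups. Those of exact permutation set a value against the values from rearranged libraries.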

Additional observations from a re-analysis of the deposited data

Results flagged for a closer look

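In 5 of the 86 sets of 5 libraries examined, 1 library lay far from the other 4, and chance flags about 1 in 20 such sets. CYP2R1 was at 3.73 scaled FPKM in liver control 5, with 1.43 to 2.01 in the other control livers. CYP7B1 was at 19.4 in the same library, with 13.2 to 14.96 in the others. FMO4 was at 7.21 in liver deficient 1, with 3.08 to 4.25 in the others. CYP27A1 was at 4.20 in breast deficient 1, with 9.08 to 9.91 in the others. SULT1B1-B was at 7.35 in breast control 3, with 14.9 to 17.7 in the others.

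The diet effect differed between the tissues for 2 members by the interaction test in limma. The liver effect minus the breast effect was 1.81 on the log2 scale for SULT1B1-A and 0.63 for CYP4V2. The CYP4V2 call was lost without any 1 of 16 of the 20 libraries, with quantile normalization and with no filter.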

How the results depend on the processing

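Direction was followed for members given with full diet statistics, for those called in the interaction and for the largest tissue differences called. It did not turn for any of them under the alternatives. The direction of the other members was not followed. The median log2 change of all genes did turn. In breast muscle it was 0.02, -0.25 with no scaling, -0.01 with upper-quartile scaling and -0.009 with no filter. For the difference of diet effects it was -0.02, 0.30 with no scaling, 0.03 with upper-quartile scaling and 0.005 with no filter. For the tissue difference it was 0.02 on each diet, and -0.15, -0.06 and -0.05 on the control diet with no scaling, upper-quartile scaling and quantile normalization. On the deficient diet it was 0.17 unscaled, -0.02 where the filter stood at 5 FPKM and -0.05 under quantile normalization. In liver the diet median was 0.005, and -0.002 with no filter. In liver 0 members were called under every alternative. Over all genes the liver count was 0, and it was 1 with a filter at 5 FPKM, 2 with no filter, 11 without control 3 and 1 without control 2, control 5 or deficient 3.

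In breast muscle 3 members were called. The count was 7, all lower, with no scaling, where the median log2 change over all genes was -0.25. It was 5 with quantile normalization (2 higher, 3 lower), 5 with library weights (1 higher, 4 lower), 6 with no filter (1 higher, 5 lower) and 0 with a filter at 5 FPKM, which left out SULT1B1-A, EPHX4 and CYP4V2 themselves. It lay between 3 and 5 over the 10 left-out libraries, the 5 coming without deficient 5. The matching shares of all genes called are not given for these settings, so nothing about the members is read from these counts. SULT1B1-A had an adjusted p of 0.00147 to 0.0158 and CYP4V2 one of 0.00276 to 0.0425 where tested. EPHX4 had one of 0.0063 to 0.0353, and its log2 change was -2.71 with an offset of 0.1. Without breast control 5 it missed the filter and was not tested. Of all genes 2854 were called, and 1835 without breast control 2.

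For the difference of diet effects 2 members were called. There were 4 with no scaling, 1 with quantile normalization, 0 with a filter at 5 FPKM, and 1 to 2 over the 20 left-out libraries. SULT1B1-A had an adjusted p of 0.00142 to 0.0175. With no filter EPHX4 (1.19, adjusted p = 0.0376) and CYP24A1 (0.41, adjusted p = 0.00807) were called too. Both had liver means under 1, where the offset of 1 compresses changes. Nothing on a difference between the tissues is therefore read from these calls. Of all genes 843 were called (56.8% higher), 1871 with no scaling (96.2% higher), 555 with the filter at 5, 456 and 557 without breast control 2 or 4, and 552 and 518 without breast deficient 3 or 4. For the tissue differences the members called stayed between 21 and 29 under all settings. Where no reason is given, the cause of these shifts was not tested.

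Libraries of equal number were not paired by the labels. Within a tissue their deviations correlated by -0.20 to 0.08. Across tissues within a diet they correlated by 0.005 to 0.16, and 8 of 10 libraries correlated best with their own number, a hint from the data and not the design. With the replicate block, 0 members were called in liver, 3 in breast muscle, 2 for the difference of effects, and 27 and 26 for the tissue differences. Depth is unknown in reads, and members under 1 FPKM had a coverage too low to rank.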
